A study of Mus musculus with 13 samples.

Results

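The interleukin-1 family and the inflammasome were followed here through 8 genes, Il1a, Il1b, Il18, Il1rn, Il1rap, Nlrp3, Pycard and Casp1, in RNA sequencing of sorted mouse microglia. They are the rows of the expression table whose symbol equals one of these names, 8 of 14518 rows. The study compared microglia of C57BL/6 mice aged 2 months that went through 6 cycles of repeated social defeat (RSD, 7 samples) with microglia of control mice (CON, 6 samples). Repeated social defeat is a psychosocial stress in which an aggressor mouse is placed among resident males. RNA was taken 24 d after the last cycle, so the comparison asks what remained in microglia weeks after the stress ended. Microglia, the macrophages of the brain tissue, were enriched on Percoll and sorted by flow cytometry as CD11b+/CD45int cells. Their RNA was isolated with PicoPure columns, and libraries came from the Ovation SoLo kit with AnyDeplete removal of unwanted transcripts. The labels name no altered allele and no drug in either group. Samples are named by group and by the number in their label, as in RSD 8 or CON 18.

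IL-1 alpha and IL-1 beta are alarm cytokines that act through the same receptor, and IL-18 acts through a related one. IL-1 beta and IL-18 are made as inactive precursors that caspase-1 cuts, and caspase-1 is switched on inside the inflammasome, a complex of a sensor such as NLRP3 and the adaptor ASC, encoded by Pycard. In the resting brain microglia are a main source of these components, and transcription of Il1b and Nlrp3 is known to be induced by a priming signal before the complex is activated. IL-1 signalling between microglia, endothelium and neurons is known from work on social defeat. RNA levels do not show cleavage or release of the cytokines.

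Il1a and Il1b are neighbours on the minus strand of chromosome 2, and Il1a RNA was far more abundant than Il1b RNA in every library, so the bases in front of both are shown. The windows are the 250 bases before the first transcribed base, from RefSeq on GRCm38.p6, chr2:129309973-129310222 for Il1a and chr2:129371140-129371389 for Il1b, both read 5′ to 3′ on the minus strand. Capitals mark matches to TATAAA, the core of a TATA box, TGANTCA, the letters bound by AP-1, and GAGGAA, letters bound by PU.1.
Il1a: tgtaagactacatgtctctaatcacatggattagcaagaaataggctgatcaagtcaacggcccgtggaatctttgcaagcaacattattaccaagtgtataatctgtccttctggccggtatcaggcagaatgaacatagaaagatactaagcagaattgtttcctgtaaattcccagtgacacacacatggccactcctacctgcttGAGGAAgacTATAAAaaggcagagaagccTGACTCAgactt
Il1b: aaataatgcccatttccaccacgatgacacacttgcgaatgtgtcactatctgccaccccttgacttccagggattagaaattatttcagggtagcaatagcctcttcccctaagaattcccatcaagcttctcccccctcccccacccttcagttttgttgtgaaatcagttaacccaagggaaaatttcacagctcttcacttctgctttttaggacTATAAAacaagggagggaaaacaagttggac
Both windows hold TATAAA, beginning 32 bases before the first transcribed base of Il1a and 31 bases before that of Il1b. The Il1a window also holds GAGGAA at 41 bases and TGACTCA at 12 bases, and the Il1b window holds neither. Letters were searched on both strands in 11 windows of the 8 genes, and no match overlapped another motif's match in the printed windows. TATAAA was in 3 of the 11 windows, with Il18 as the third gene, and in 12.4% of 32851 windows of the same length over all genes. TGANTCA was in 2 windows, of Il1a and Il1rn, and in 6.75% of all windows. GAGGAA was in 4 windows, of Il1a, Pycard, Casp1 and the downstream start of Nlrp3, and in 23.3% of all. TTGCNNAA, letters bound by C/EBP factors, was in 1 window, of Pycard, and in 9.56% of all. GGGA and TTCC with any 2 bases between them, letters bound by NF-kB, were in 0 of the 11 windows and in 1.21% of all. These matches describe letters in short windows and do not show binding. Sites spelled with other letters would not be found, so a missing match does not show a missing site.

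Depth was 9.76 to 12.3 M reads per library, with 14206 to 14428 rows detected. Values are normalized reads, that is reads divided by the library's size factor. Across RSD and CON, 0 of 12496 tested genes (0%) passed an adjusted p of 0.05 by limma, 0 by edgeR (0%) and 2 by DESeq2 (0.016%). An unadjusted p under 0.05 was found for 500 genes (4%) by limma, 632 (5.06%) by edgeR and 577 (4.62%) by DESeq2. The microglial markers Csf1r, P2ry12 and Cx3cr1 each had a level per kilobase above at least 99.8% of genes. A pair of libraries stood apart. CON 18 had a median Spearman rho of 0.942 with the other libraries. Its summed border macrophage markers were 14733 normalized reads against 187 to 450 in the other 12 libraries, and its summed microglial markers were 162748 against 251501 to 270906. RSD 8 had a median rho of 0.968, and its deviation from the other libraries followed the GC content of genes with a Spearman rho of -0.73 over 12364 genes. Without both, the summed border macrophage markers were 290.1 to 450 in RSD and 187 to 330 in CON, a log2 difference of 0.50 (exact permutation p = 0.0152, adjusted 0.136 over 9 marker lists). Most of these sums was Mrc1, at 257 to 405 in RSD and 165 to 287 in CON. Each other marker of the list had at most 22.2 normalized reads there, so the difference is mainly that of 1 gene. With all libraries none of the 9 lists differed at an exact permutation p under 0.05. The differences between RSD and CON are given with these libraries and, where leaving them out turned the sign or moved the value by more than 1.5 times, also without them. Whether the samples came from separate animals is not stated, and the p-values therefore cover only the spread among these samples. In sorted bulk RNA, fewer cells expressing a gene and less RNA in each cell cannot be told apart.

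Per kilobase of exon, Il1a was the highest of the 8 genes and Il1rn the lowest. Exon length here is that of the coding transcripts in GENCODE M21. Il1a averaged 844 normalized reads per kilobase over the 13 libraries, above 96.2% of 11587 tested genes with a coding length. Nlrp3, the sensor, averaged 531, at percentile 92.5. Both were among the more abundant messages of these cells. Il18 followed with 309 at percentile 84.3, Casp1, the protease, with 226 at 76.7, and Pycard, the adaptor, with 197 at 72.9. The exon length taken for Pycard was 3800 bases, of a gene span of 4160. A shorter message would raise its level per kilobase, so its place depends on this gene model. Il1b averaged 31.4, at percentile 23.0, and Il1rap, the accessory chain that IL-1 receptors need for signalling, 19.7, at 16.2. Il1rn, the secreted antagonist of the IL-1 receptor, averaged 1.24 and was below the limit for testing.

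The order of these levels was mostly the same in each library. Il1a lay above Nlrp3 in 12 of 13 libraries, with CON 18 as the exception, and Nlrp3 lay above Il18 in all 13. Il18 exceeded Casp1 in 12, again with CON 18 as the exception. Casp1 exceeded Pycard in 10, and the ranges of these neighbours overlapped, so their order was not beyond the spread between libraries. Pycard lay above Il1b in all 13 with separate ranges, whereas Il1b exceeded Il1rap in 12 with overlapping ranges. Il1a per kilobase was 15.6 to 40.1 times Il1b in CON (median 26.2) and 26.1 to 38.6 times in RSD (median 28.9). The RSD range of this ratio lay inside the CON range.

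**Figure D1:**
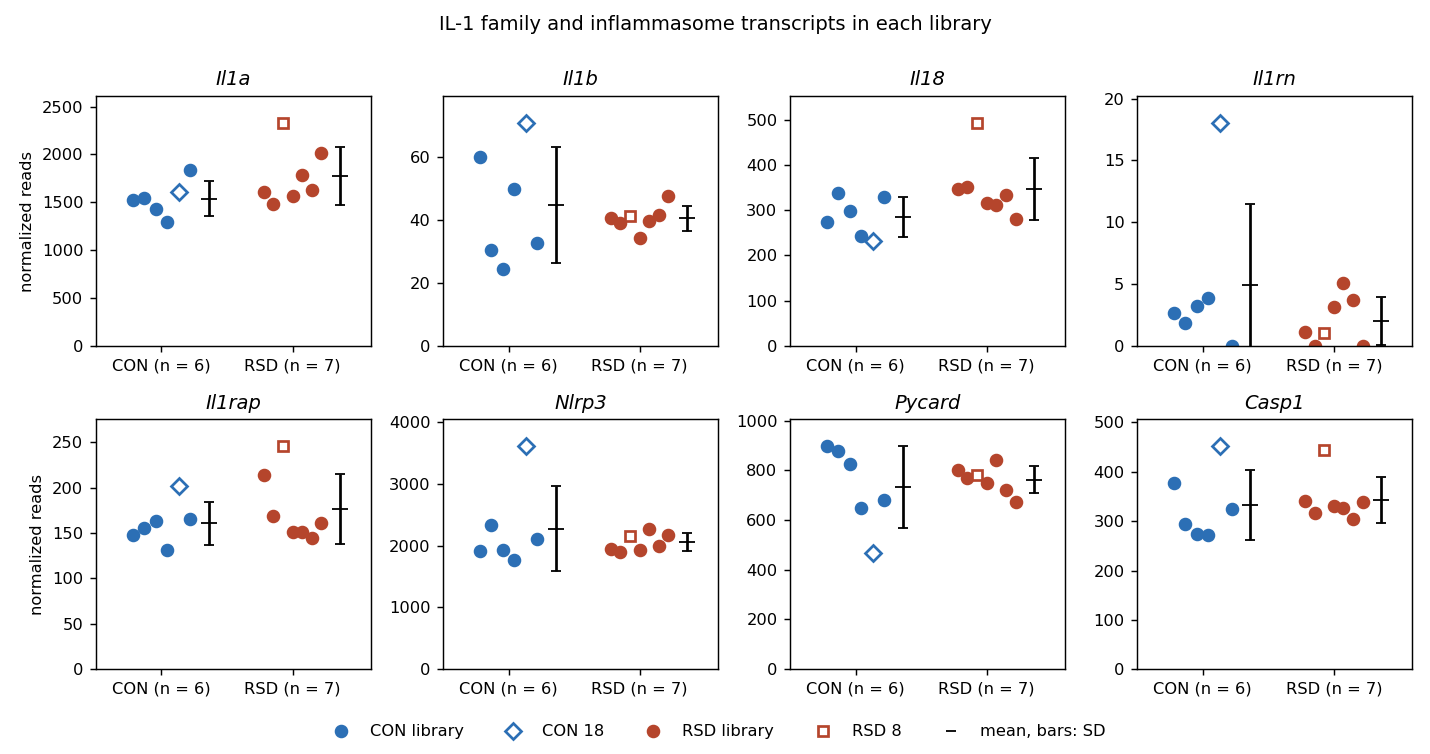
Normalized reads of the 8 genes in each library, RSD and CON side by side, with each gene on its own axis; points are libraries and bars the mean and SD (the lower end of the Il1rn bars is limited by 0). RSD and CON points overlapped for every gene, RSD 8 was the highest RSD point for Il1a, Il18, Il1rap and Casp1, and CON 18 was the highest point for Il1b, Il1rn, Nlrp3 and Casp1.

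RSD and CON overlapped for all 8 genes and none passed the test, read from the fit over all genes. Of 12496 genes tested, 8 (0.064%) had groups that did not overlap, and none of the 8 genes described here was among them. Log2 differences are of normalized reads + 1 and are given ± SE. Of the 7 tested, 5 had a positive log2 difference, RSD minus CON, and 2 a negative one. Their median was 0.09 on the log2 scale, against 0.01 over all genes tested, where 6420 were positive and 6076 negative. The number with an unadjusted p under 0.05 was 1 of 7, Il18, where 4% of all genes had one. Of the 7, edgeR (adjusted p = 0.793) and DESeq2 (adjusted p = 0.856) also gave Il18 alone an unadjusted p under 0.05. With voom quality weights, which give less weight to libraries that vary more, Il18 was 0.10 (adjusted p = 0.724) and the 1 of 7 was Il1a instead, at 0.17 (limma, adjusted p = 0.539), where 9.02% of all genes had an unadjusted p under 0.05. Without CON 18 and RSD 8 it was 0 of 7, where 4.89% of all genes had one by limma. The log2 differences ranged from -0.11 for Nlrp3 to 0.27 for Il18, and their adjusted p from 0.821 to 0.962 by limma. The median standard error over all genes was 0.13 and the median size of a difference 0.11.

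Among the ligands, Il18 had the largest difference. The gene is on chromosome 9 (50554827 to 50581840, plus strand, GRCm38, ENSMUSG00000039217.13). In the RSD libraries it was 280.1 at lowest, 333 at the median and 493 at the highest, and in CON 232, 286 and 338. RSD 2, RSD 7 and RSD 8, the RSD libraries of sample numbers 1 to 8, lay above every CON library. The other 4 RSD libraries lay within the CON range. Means were 347 ± 68.5 (SD, n = 7) in RSD and 286 ± 44.1 (SD, n = 6) in CON. The log2 difference was 0.27 ± 0.13 (SE; 95% interval 0.01 to 0.54), with an unadjusted p of 0.0458 and an adjusted p of 0.821 by limma. With the sample number range as a term, the log2 difference was 0.29 (limma, unadjusted p = 0.0178, adjusted p = 0.701). By that fit 5.87% of all genes had an unadjusted p under 0.05. In the fit without the term, the difference was 0.19 without RSD 8, the highest. Without both RSD 8 and CON 18, the lowest CON library, it was 0.13 ± 0.09 (limma, unadjusted p = 0.162). The lowest CON value and the highest RSD value of Il18 thus came from the libraries that stood apart. The Il18 locus overlaps Bco2 and Tex12 on the opposite strand, without any shared exon base. Bco2, which encodes a carotenoid-cleaving enzyme, had a log2 difference of 0.22 ± 0.11. Its means were 713 in RSD and 620 in CON, and 706 and 663 without RSD 8 and CON 18. The lowest Bco2 value was 403, in CON 18. The Spearman rho of Bco2 with Il18 was 0.50 over 13 libraries and 0.17 without CON 18 and RSD 8. Tex12, a meiosis gene whose overlap with Il18 is longer (4507 bases against 355), had a log2 difference of 0.13 ± 0.16. Its means were 91.2 in RSD and 81.6 in CON, and 83.7 and 78.3 without RSD 8 and CON 18. The rho of Tex12 with Il18 was 0.39 over 13 libraries and 0.49 without those.

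Il1a, on chromosome 2 (129299610 to 129309972, minus strand, ENSMUSG00000027399.1), was 1483 at lowest, 1632 at the median and 2330.4 at the highest in RSD. In CON it was 1291 at lowest, 1532 at the median and 1843 at the highest. RSD 8 and RSD 13 exceeded every CON library, and the lowest RSD value lay above 2 of the 6 CON values. Means were 1774 ± 300.3 (SD, n = 7) and 1540.1 ± 184 (SD, n = 6). The log2 difference was 0.20 ± 0.11 (95% interval -0.03 to 0.42; limma, adjusted p = 0.821). It was 0.13 without RSD 8 and 0.14 without CON 18 and RSD 8. About 1630.1 reads per library stood behind Il1a, a counting error of 2.48%, against a spread between libraries of 16.3%. The gene overlaps Gm14023, a gene on the opposite strand, over 222 exon bases, 11.2% of the exon bases of Il1a. Gm14023 had 0.522 to 0.731 reads per Il1a read, and its Spearman rho with Il1a was 0.81 over 13 libraries and 0.80 over 11. Strand use in the counting is not given in the sources used here, so reads from the shared bases cannot be told apart.

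Il1b, on chromosome 2 (129364570 to 129371139, minus strand, ENSMUSG00000027398.13), had only 23 to 67 reads per library. In RSD it was 34.3 at lowest, 40.7 at the median and 47.8 at the highest, and in CON 24.5, 41.4 and 71.0. All 7 RSD values lay inside the CON range. Means were 40.7 ± 4.01 (SD, n = 7) and 44.9 ± 18.5 (SD, n = 6), and the log2 difference was -0.04 ± 0.22 (95% interval -0.52 to 0.43; limma, adjusted p = 0.962). The interval reaches past a change of 0.4 in either direction, so such a change was not resolved in these libraries. The sign was the opposite without CON 18 and RSD 8, at 0.10, and when CON 1 (0.06), CON 17 (0.0059) or CON 18 (0.11) alone was left out. The spread of Il1b was unequal: a coefficient of variation of 9.87% in RSD, below the counting error of 16.1%, and of 41.1% in CON, above the counting error of 14.9%. The difference in spread was seen after the fact and was not tested. Il1bos, a gene on the opposite strand, shares 25 exon bases with Il1b and had 0.27 to 1.06 reads per Il1b read. Its rho with Il1b was -0.19.

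Neutrophils are rich in Il1b, and 9 neutrophil genes summed to 188 to 1220.3 normalized reads in the libraries numbered 1 to 8 and to 15.5 to 157 in those numbered 10 to 19. This count leaves out Csf3r, which microglia also express and which had 6174 to 9076 normalized reads. In numbers 1 to 8 most of these sums came from S100a8, S100a9, Ngp and Ltf. The list was not uniform: Cxcr2 reached 23.2 in RSD 2 and 22.5 in CON 18, and Retnlg was 0 in RSD 2 and 10.4 in RSD 10. Ly6g, also on the list, was not in the table. Il1b was 24.5 to 60.2 in the first set and 32.9 to 71.0 in the second, and these ranges overlapped. In RSD 2, RSD 7 and RSD 8, with neutrophil sums of 794 to 1220.3, Il1b was 39.0 to 41.5, and in the other RSD libraries, with sums of 34.2 to 157, it was 34.3 to 47.8. The part of neutrophil RNA in the level of Il1b was not tested.

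The antagonist and the accessory chain overlapped between the groups. Il1rn, on chromosome 2 (24336853 to 24351494, plus strand, ENSMUSG00000026981.15), had 42 reads over all 13 libraries, 16 of them in CON 18 and 0 to 5 in each of the others. In normalized reads it was 0 at lowest, 1.16 at the median and 5.09 at the highest in RSD, and 0, 2.95 and 18.0 in CON. RSD 7, RSD 13 and CON 19 had no read, which allows up to 3 reads in each, for counting error only. Without the low-count filter the log2 difference was -0.71 ± 0.64 (limma, adjusted p = 0.840). The CON mean was 4.94 ± 6.55 (SD, n = 6) with CON 18 and 2.32 ± 1.49 without it, and the RSD mean was 2.02 ± 1.97 (SD, n = 7). Il1rap, on chromosome 16 (26581704 to 26730117, plus strand, ENSMUSG00000022514.14), was 144 at lowest, 161 at the median and 246 at the highest in RSD and 132, 159.6 and 202 in CON. RSD 2 and RSD 8 lay above all CON libraries and the other 5 within their range. Means were 177 ± 38.2 (SD, n = 7) and 161 ± 23.5 (SD, n = 6). The log2 difference was 0.12 ± 0.14 (95% interval -0.17 to 0.41; limma, adjusted p = 0.836). It was 0.04 without RSD 8, 0.19 without CON 18 and 0.11 without both. Il1rap shares 552 exon bases with Gm20319 on the opposite strand.

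Among the inflammasome parts, Nlrp3 had a negative difference that came with 1 library. It lies on chromosome 11 (59541568 to 59566956, plus strand, ENSMUSG00000032691.14). Nlrp3 was 1903 at lowest, 1985 at the median and 2272 at the highest in RSD, and 1760.4, 2014 and 3607 in CON. The CON maximum was CON 18, and the next CON library had 2331. Means were 2051 ± 145 (SD, n = 7) and 2273 ± 682 (SD, n = 6), or 2006 ± 219 in CON without CON 18. The log2 difference was -0.11 ± 0.13 (95% interval -0.38 to 0.17; limma, adjusted p = 0.846), and 0.02 without CON 18 and RSD 8. The coefficient of variation was 21.7% over all libraries and 8.70% without those, where it was the lowest of the 8 genes. With 2103 reads per library, its counting error was 2.18%.

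Pycard, on chromosome 7 (127989708 to 127993867, minus strand, ENSMUSG00000030793.4), was 674 at lowest, 770.2 at the median and 842 at the highest in RSD. In CON it was 467, 753 and 897. CON 18 was the lowest library and CON 1 the highest, so every RSD value lay within the CON range. Means were 762 ± 54.6 (SD, n = 7) and 733 ± 166 (SD, n = 6). The log2 difference was 0.09 ± 0.13 (95% interval -0.18 to 0.36; limma, adjusted p = 0.863), and -0.04 without CON 18 and RSD 8. Pycard shares 485 exon bases with Gm45205 on the opposite strand, which limits how its reads can be assigned. Casp1, on chromosome 9 (5298517 to 5307265, plus strand, ENSMUSG00000025888.5), was 304 at lowest, 331 at the median and 445 at the highest in RSD and 272, 309 and 452 in CON. All RSD values lay within the CON range. Means were 343 ± 46.6 (SD, n = 7) and 332 ± 70.5 (SD, n = 6). The log2 difference was 0.06 ± 0.12 (95% interval -0.20 to 0.32; limma, adjusted p = 0.902), and it was -0.0032 without RSD 8, 0.15 without CON 18 and 0.09 without both. Nlrp3 per kilobase was 2.27 to 3.02 times Pycard in RSD and 2.00 to 7.24 times in CON. CON 18 held the highest of these ratios, and their size depends on the exon length taken for Pycard.

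**Figure D2:**
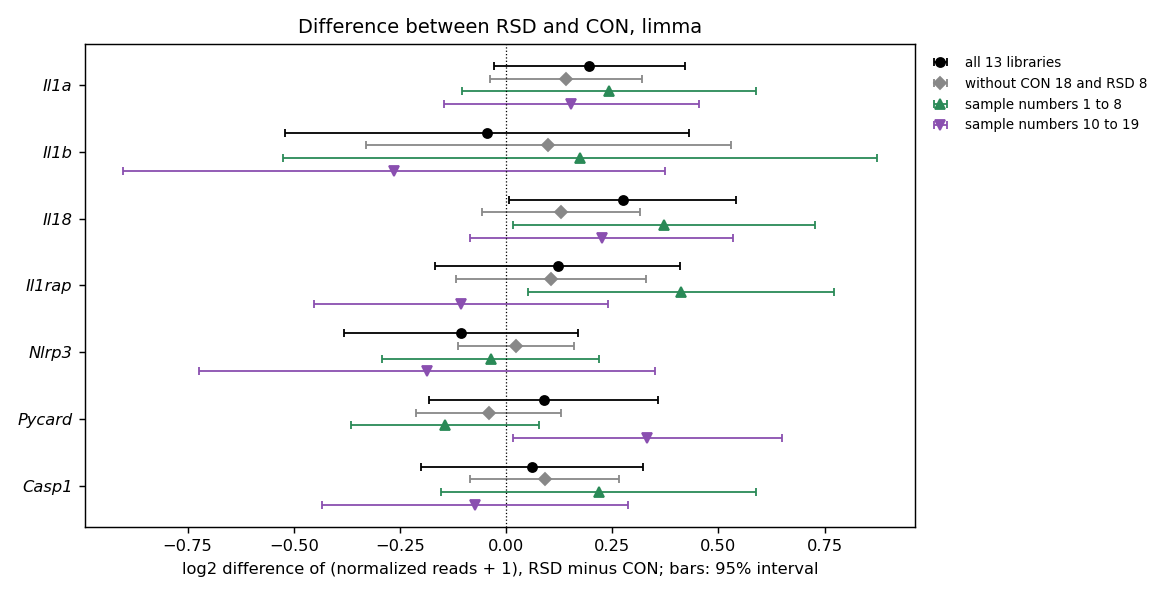
Log2 difference of normalized reads + 1, RSD minus CON, with its 95% interval for the 7 tested genes, over all 13 libraries, without CON 18 and RSD 8, in sample numbers 1 to 8 and in sample numbers 10 to 19. Over all libraries the interval includes 0 for every gene except Il18 (0.01 to 0.54), and without CON 18 and RSD 8 it includes 0 for all 7 genes.

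Other genes of the pathway were read from a list of receptors, other ligands, receptor signalling, sensors and effectors, 54 symbols of which 40 were in the table and 36 were tested. None passed an adjusted p of 0.05 by limma, and 1 of 36 (2.78%), Il18rap, had an unadjusted p under 0.05, where 4% of all genes had one. By sign 24 were positive and 12 negative, against 6420 and 6076 over all genes tested, with a median log2 difference of 0.05 against 0.01 over all genes tested. Without CON 18 and RSD 8, 21 were positive and 15 negative, against 6286 and 6210 over all genes. The median was then 0.015, against 0.0009 over all genes. Of the receptor chains, Il18rap, the signalling chain of the IL-18 receptor, was 25.6 at lowest, 40.1 at the median and 46.8 at the highest in RSD and 13.5, 25.7 and 44.9 in CON. Its groups overlapped, and the log2 difference was 0.57 ± 0.25 (limma, unadjusted p = 0.0395, adjusted p = 0.821). It was 0.52 without RSD 8 (limma, unadjusted p = 0.0691, adjusted p = 0.978). The value was 0.67 without CON 18 (limma, unadjusted p = 0.0156, adjusted p = 0.743) and 0.63 without CON 18 and RSD 8 (limma, unadjusted p = 0.0190, adjusted p = 0.902). By edgeR and by DESeq2, 0 of the 5 receptor genes tested had an unadjusted p under 0.05. Il1r1, the signalling receptor for IL-1, was 28.1, 36.7 and 50.01 in RSD and 25.1, 26.4 and 42.2 in CON, a log2 difference of 0.37 ± 0.19. Il1rl2, the IL-36 receptor, differed by 0.22 ± 0.15, and by 0.06 without CON 18, which had 281 normalized reads against 511 or more in the others. Il18bp, a soluble antagonist of IL-18, differed by 0.05 ± 0.09, and by 0.02 without CON 18 and RSD 8. Il1r2, Il18r1 and Sigirr were in the table but below the limit for testing, and none of the 11 other ligand symbols was in the table.

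In the signalling branch all 12 genes were tested. Peli1, a ubiquitin ligase of the pathway, had a log2 difference of 0.17 ± 0.10, Map3k7, the kinase TAK1, 0.10 ± 0.07, Tab3, its partner, 0.13 ± 0.10, and Myd88, the receptor adaptor, -0.10 ± 0.11. Each overlapped between groups. These values were, without CON 18 and RSD 8, 0.12 for Peli1, 0.06 for Map3k7, 0.05 for Tab3 and -0.06 for Myd88, and without RSD 8 alone they were 0.09, 0.04, 0.04 and -0.02. Of the sensors and partners, 12 of 15 were tested. Nek7, which binds NLRP3, differed by 0.19 ± 0.10, Naip5, a sensor of bacterial protein, by 0.11 ± 0.06, Txnip, a redox protein reported to bind NLRP3, by 0.17 ± 0.09, Aim2, a DNA sensor, by 0.10 ± 0.10, and P2rx7, the ATP-gated channel that triggers NLRP3, by -0.04 ± 0.06. Nek7 was, without CON 18 and RSD 8, 0.06, Naip5 0.07, Aim2 0.04 and P2rx7 0.02, the last with the opposite sign, and Txnip was 0.09 without CON 18. Nlrc4, the partner of the NAIP sensors, differed by -1.30 ± 0.97, and this value came from CON 18, with 902 normalized reads against 3.20 to 13.5 in the other 12 libraries. Without CON 18 it was -0.22. Of the effectors and regulators 7 of 8 were tested, Serpinb1a being the one below the limit. Brcc3, a deubiquitinase of NLRP3, differed by 0.25 ± 0.14, Ninj1, which ruptures the membrane of dying cells, by -0.22 ± 0.15, Casp8 by 0.09 ± 0.07 and Gsdmd, the pore protein cut by caspase-1, by -0.04 ± 0.09. Ninj1 was, without CON 18 and RSD 8, -0.05, Casp8 0.0069 and Gsdmd -0.0023, and without RSD 8 alone Brcc3 was 0.16 and Gsdmd 0.03. Of the pathway genes named here, all except Il18rap had a smaller difference without the libraries that stood apart. Without CON 18 and RSD 8, 3 of 36 pathway genes (8.33%) had an unadjusted p under 0.05 by limma, against 4.89% of all genes. They were Il18rap, Peli1 (0.12 ± 0.06) and Txnip (0.12 ± 0.06), the latter pair with smaller standard errors than over all libraries. None passed the adjusted test.

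**Figure D3:**
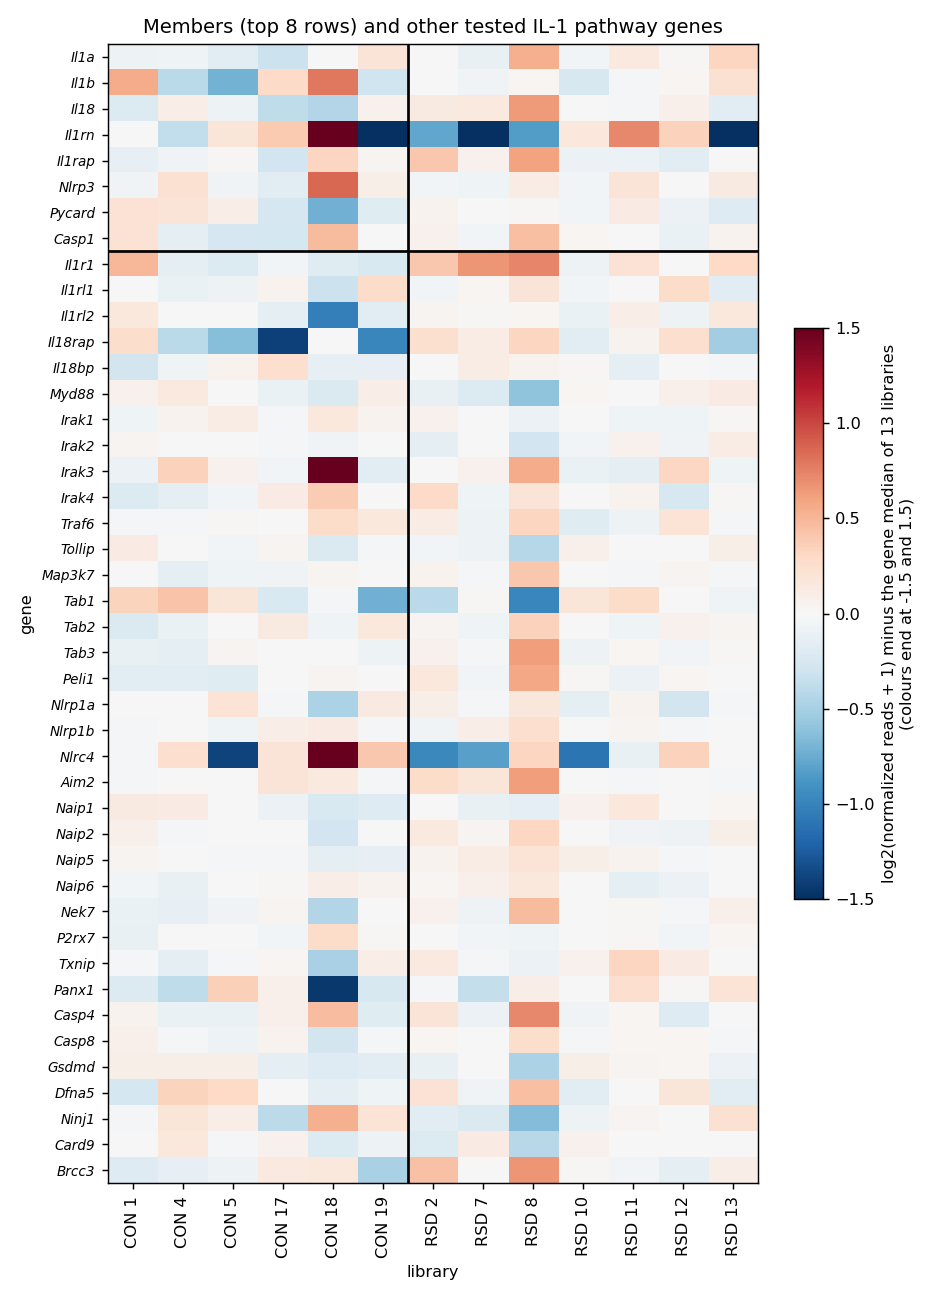
Difference of log2(normalized reads + 1) in each library (columns, CON then RSD) from the gene's median over the 13 libraries, for the 8 genes (top rows) and the 36 tested genes of the pathway list; colours stop at the ends of the scale. The columns of CON 18 and RSD 8 depart from the median in the most rows, as with Nlrc4, at 902 normalized reads in CON 18 against 13.5 or fewer elsewhere.

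CON 18 departed from the other libraries in several of these genes at once. Set against the other 11 libraries without RSD 8, it lay outside their range for 5 of the 7 tested genes, where 53.8% of all tested genes did. Il1b, Nlrp3 and Casp1 were above the others at 1.79, 1.86 and 1.395 times their median, and Il18 and Pycard below at 0.735 and 0.606 times. Il1a (1.03 times) and Il1rap (1.29 times) lay within. CON 18 also had the high border macrophage sum named above, and the part of those cells in these values was not tested. Lyve1, one of that list's defining markers, was not in the table. In the other 12 libraries the same markers summed to 450 normalized reads or fewer.

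With CON 18 left out, RSD 8 lay above all other 11 libraries for 4 of the 7 genes and below for 0, where 32.3% of all tested genes lay above and 30.1% below. Those 4 were Il1a (1.49 times the median of the others), Il18 (1.56), Il1rap (1.58) and Casp1 (1.37). They are the 4 tested genes of lowest GC content, 41.1% to 45.1% in the longest annotated transcript, while the 3 within range had 45.6% for Pycard, 46.3% for Il1b and 51.0% for Nlrp3. Over all genes, 68.7% of those in the lowest of 3 equal classes of GC content (up to 46.4%) lay above the other libraries in RSD 8, 25.4% in the middle and 2.52% in the highest (over 52.7%). RSD 2 followed GC content in the same direction with a rho of -0.56, and the other 11 libraries had rho from -0.09 to 0.40. The part of GC content in the levels of these 4 genes was not tested.

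**Figure D4:**
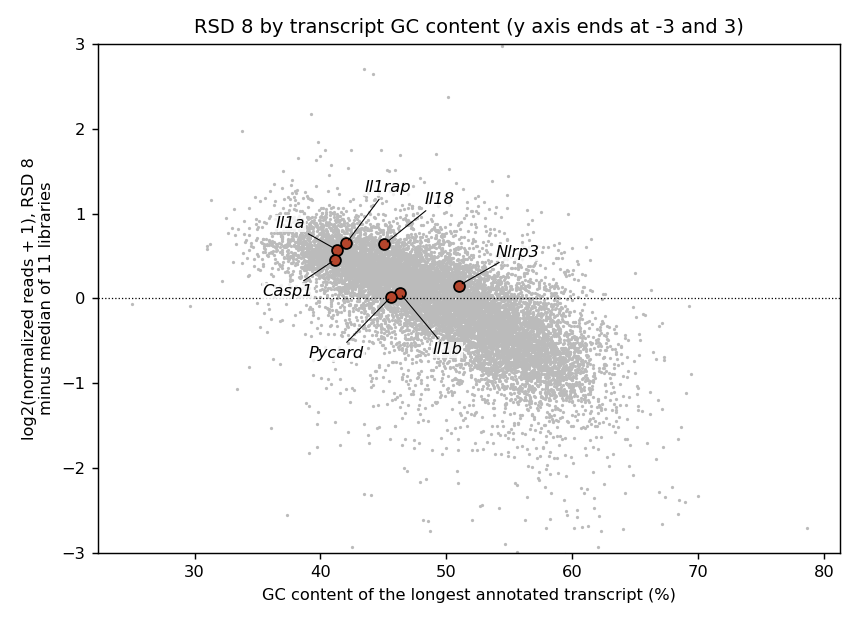
Difference of log2(normalized reads + 1) between RSD 8 and the median of the other 11 libraries (CON 18 left out), against the GC percent of the longest annotated transcript, for 12364 tested genes, with the 7 genes named. The cloud slopes down with GC content, and Il1a, Il18, Il1rap and Casp1 lie high at its low-GC side, near other genes of similar GC content.

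Sample numbers fell in the ranges 1 to 8, with 3 RSD and 3 CON, and 10 to 19, with 4 RSD and 3 CON. Whether these ranges are batches is not stated in the labels. In numbers 1 to 8, 0 genes (0%) passed the adjusted test. An unadjusted p under 0.05 by limma was found for 22.2% of all genes and for 2 of the 7 genes. These were Il18, with a log2 difference of 0.37 (limma, adjusted p = 0.219), and Il1rap, with 0.41 (limma, adjusted p = 0.206). That set contains RSD 2 and RSD 8, the libraries most tied to GC content. In numbers 10 to 19, 0 genes passed the adjusted test, and an unadjusted p under 0.05 was found for 5.44% of all genes and for 1 of the 7. This was Pycard, with a log2 difference of 0.33 (limma, adjusted p = 0.725). This set contains CON 18, the library of lowest Pycard, and without it, an alternative chosen after seeing the data, Pycard was 0.16 (limma, adjusted p = 0.543), with an unadjusted p above 0.05. For the difference between the ranges, tested as an interaction term, 0 of 12496 genes passed an adjusted p of 0.05 by limma, and 21.7% of all genes and 2 of the 7 had an unadjusted p under 0.05. Pycard had a log2 interaction (numbers 10 to 19 minus numbers 1 to 8) of 0.48 ± 0.18 (limma, adjusted p = 0.173) and Il1rap of -0.52 ± 0.23 (adjusted p = 0.212). Without CON 18 and RSD 8, 463 genes passed (3.71%), among them 0 of the 7 genes, with Pycard at 0.31 (adjusted p = 0.140 by limma). Of the pathway list, 2 passed: Tab1, which activates TAK1, at 1.08 (adjusted p = 0.00758) and Aim2 at -0.32 (adjusted p = 0.0464). In that fit the only RSD libraries of numbers 1 to 8 were RSD 2 and RSD 7. The only CON libraries of numbers 10 to 19 were CON 17 and CON 19, so these values rest on few libraries. Tab1 was chosen for naming after its values were seen.

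Levels of the 8 genes across libraries were compared in 28 pairs, with Benjamini-Hochberg adjustment over the pairs, and no pair passed in Pearson or Spearman over 13 libraries or without CON 18 and RSD 8. The largest Pearson r was 0.71 between Il1rap and Casp1 (permutation p = 0.00826, adjusted 0.167), with a Spearman rho of 0.51 (permutation p = 0.0777, adjusted 0.394). It was 0.65 when RSD 2 and RSD 8, the libraries farthest from the median of Il1rap, were left out. Without CON 18 and RSD 8, r for this pair was 0.31 (permutation test, adjusted p = 0.644), with a rho of 0.23. Over the 11 libraries Il1a and Nlrp3 had the largest r, 0.69 (permutation test, adjusted p = 0.541), with a rho of 0.75 (adjusted p = 0.166). For these 2 genes r was 0.51 without RSD 13 and CON 17.

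For each gene the nearest patterns over the 13 libraries were taken as the 2 genes of highest Spearman rho, given as a description with no p since libraries share depth and composition. For Il1a they were Prosc (0.91) and Snhg1 (0.88), for Il1b Elac2 (0.91) and Uhmk1 (0.80), and for Il18 Gm5134 (0.88) and Ddx26b (0.88). For Il1rn they were Tbrg4 (0.87) and Tep1 (0.86), and for Il1rap Xpo7 (0.93). For Nlrp3 they were Cpsf3 (0.84) and Tnf (0.83), for Pycard Nme2 (0.91) and Homez (0.90), and for Casp1 Snord11 (0.93) and Ms4a6b (0.92). Without CON 18 and RSD 8 the values named here lay from 0.76 for Uhmk1 to 0.94 for Prosc.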

How the data were processed

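RNA of sorted microglia was sequenced in 13 samples, 7 RSD and 6 CON, grouped by their labels. The submitters' processing notes name STAR, DESeq2 and the mm10 build. Tool versions, the counting program, its gene models and whether it used strand: not given in the sources used here. Deposited was 1 table, a signal per gene and library that its values show to be a read count over a size factor: 100% were whole multiples of the value of 1 read, within a tolerance of 0.01 reads, which gave back the reads. Any PCR copies count as reads.

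The test was limma 3.58.1 in R 4.3.3 on log2(value + 1), with trend and robust variance, two-sided, Benjamini-Hochberg adjusted over the 12496 genes kept by filterByExpr (minimum count 10, minimum total 15). Differences on this scale understate those of low genes. edgeR 4.0.16 and DESeq2 1.42.0 ran on the recovered reads as alternatives. The steps were tested on simulated data. Other alternatives were the pseudocount, the filter, TMM factors, voom weights, leaving out libraries and the sample number ranges. Marker lists were summed and compared by exact permutation. Motif and promoter sequences are RefSeq GRCm38.p6, gene models GENCODE M21.

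Genes named were the 8 members, up to 3 genes of smallest p in each class of the pathway list, Il1r1, Il18bp, Gsdmd, Aim2, Nlrc4, Myd88 and P2rx7 in any case, and the 2 genes most alike to each member, of which 1 is not reported here. The members and lists were chosen with earlier results of these data known.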

Additional observations from a re-analysis of the deposited data

Results flagged for a closer look

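Within a group, a library was picked out when its gap to the nearest other library was large for the range of the group (Dixon's 95% limit). Chance picks out about 1 in 20 groups. Over the 8 genes and the named pathway genes, 52 groups were tested and 15 values were picked out, 9 of them from RSD 8 and 5 from CON 18. That is 28.8% of the groups. Over all 12496 tested genes the same limit picked out 4458 values in 24992 groups (17.8%), 3981 of them from RSD 8 or CON 18, so such values were frequent in these libraries whichever genes were taken.

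Of the members, Il18 in RSD 8 had 493 normalized reads and Casp1 in RSD 8 had 445. Nlrp3 in CON 18 had 3607 and Il1rn in CON 18 had 18.0. Of the pathway genes, RSD 8 stood apart with 3049 for Aim2, 2403 for Casp8, 1839 for Map3k7, 3208 for Nek7, 2696 for Peli1 and 641 for Tab3, and on the low side with 858 for Gsdmd. CON 18 stood apart with 902 for Nlrc4 and 4659 for P2rx7, and on the low side with 281 for Il1rl2. CON 1 stood apart with 42.2 for Il1r1.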

How the results depend on the processing

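Over 181 member values under alternatives, 163 kept their direction, 18 took the opposite sign and 0 passed the adjusted test, with adjusted p from 0.206 to 1.00 by limma, edgeR or DESeq2. Il1a and Il18 kept a positive difference under every alternative run. Genes passing the adjusted test numbered 0 by limma, 2 with DESeq2 and 11 in numbers 10 to 19 without CON 18, an alternative chosen after seeing the data. The interaction called 0 genes with all libraries and 463 without CON 18 and RSD 8.

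With voom quality weights the log2 difference was 0.16 for Il1b, 0.0076 for Nlrp3 and -0.081 for Pycard. Without CON 18 and RSD 8 it was 0.10 for Il1b, 0.023 for Nlrp3 and -0.041 for Pycard. In numbers 1 to 8 it was 0.17 for Il1b and -0.14 for Pycard, and in numbers 10 to 19 it was -0.11 for Il1rap and -0.073 for Casp1. In numbers 10 to 19 without CON 18 it was 0.00043 for Il1b and 0.12 for Nlrp3. Leaving out each library in turn gave 0.13 to 0.25 for Il1a, -0.19 to 0.11 for Il1b, 0.19 to 0.32 for Il18, 0.04 to 0.19 for Il1rap, -0.17 to 0.035 for Nlrp3, -0.034 to 0.15 for Pycard and -0.0032 to 0.15 for Casp1. Without CON 18 and RSD 8 the summed marker differences were -0.021 for microglia, 0.50 for border macrophages, -0.016 for astrocytes, -0.12 for endothelium (log2 scale, these 4 lists opposite in sign to their values over all libraries) and -0.11 for oligodendrocytes (exact permutation p = 0.0325, against 0.0600 with all). The cause was not tested, and the border macrophage sums were mostly Mrc1. No paired analysis was run, because the labels give no pairing of RSD with CON samples. Il1b and Il1rn had few reads, and the spread of Il1b among CON libraries was above its counting error.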
